A study of Mus musculus with 12 samples.

Results

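The genes described here are 10 surface receptors that mature B cells carry. They were taken from a fixed list and matched by mouse symbol: Ms4a1, Fcer2a, Cr2, Cd22, Cd72, Cd37, Siglecg, Fcgr2b, Tnfrsf13c and Tnfrsf13b. All 10 were found among the 56748 gene identifiers of the count files, and all 10 passed the filter on low counts together with the other genes of the 13535 tested. Bulk RNA-seq of poly(A) RNA was made from Eµ-Myc lymphoma cells, a mouse B lineage tumour in which Myc is driven by the immunoglobulin heavy-chain enhancer. Cells came straight from culture (4 libraries), from lymph nodes of C57BL/6J mice on day 11 after tumour injection in the lymphatic model of dissemination (4 libraries), or from such lymph nodes on day 18 in the hematogenous model (4 libraries). The 3 groups share the Eµ-Myc line, and no further genotype, treatment or host age is given for any of them. Route and day move together, so they cannot be told apart. The labels name lymphoma sorting from the nodes but give no marker or gate, and their tissue field reads lymph node even for libraries whose titles say culture, where the titles were followed. Nothing in the labels says that replicates are separate animals or cultures, so each p-value measures only the spread between these libraries, which may be technical.

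B cells read antigen through the B cell receptor, and the surface genes described here set how strongly that signal passes and how long the cell lives. CD22, Siglec-G, CD72 and the Fc receptor encoded by Fcgr2b dampen the signal by recruiting phosphatases, whereas CD21, encoded by Cr2, strengthens it when antigen carries complement. BAFF receptor (Tnfrsf13c) and TACI (Tnfrsf13b) bind survival cytokines of the TNF family, and CD20 (Ms4a1), CD23 (Fcer2a) and CD37 are classical markers of the mature stages. In healthy lymph nodes, CD23 and CD21 are abundant on resting follicular B cells, and CD21 is also carried by follicular dendritic cells.

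Total counts assigned to genes ranged from 5286775 to 25302016 per library. B lineage identity was checked with Cd79a, Cd79b, Pax5, Ebf1 and Cd74, which had counts in every group. Of 9 genes of B cell precursors, Cd93, an antigen of immature B cells, was high in all groups, at 569 ± 26.8 CPM (counts scaled to library size; SD, n = 4) in culture, 205 ± 73.5 in the lymphatic and 285 ± 14.1 in the hematogenous libraries. Vpreb3 was also read in all groups, at 130 ± 14.3, 133 ± 63.5 and 228 ± 33.0 CPM. Il7r was read in all groups too, with means of 48.3 CPM in culture, 61.5 in the lymphatic and 118 in the hematogenous libraries. The remaining precursor genes had lower means. Vpreb1, Vpreb2 and Igll1 had group means of at most 1.29 CPM, and Dntt of at most 5.27 CPM. Rag1 stood at 10.3, 38.5 and 7.88 CPM and Rag2 at 5.14, 15.9 and 8.67 CPM, orders unlike that of Cd93. Rag1 in lymphatic library 4 was 10.8 CPM, against 41.4 to 51.1 in the other lymphatic libraries. Lymphatic library 4 stood apart in its share of counts from ribosomal protein genes, 15.95%, against 7.60% to 9.86% in the other libraries. Several results that moved without this library are given beside the genes they touch, but not every shift in a list count.

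Most members differed from culture in both lymph node groups. Against culture, 5 of the 10 receptors rose and 3 fell in the lymphatic libraries at an adjusted p under 0.05 (edgeR quasi-likelihood F test, two-sided, Benjamini-Hochberg over all tested genes). Of all tested genes, 13.4% were called higher and 13.0% lower in that comparison. Without lymphatic libraries 3 and 4, 5 members were called lower, the additional ones being Cd37 and Tnfrsf13b. In the hematogenous libraries 7 members rose and 1 fell, where 13.9% of all tested genes were called higher and 13.9% lower. Between the lymph node groups, 2 members were higher and 6 lower in the lymphatic libraries, against 11.4% and 10.9% of all tested genes. The values of the groups did not overlap for 8 members in the lymphatic comparison with culture, for 8 in the hematogenous one and for 6 between the lymph node groups, where 30.1%, 43.6% and 24.6% of all tested genes had no overlap. The median log2 difference over the 10 members was 0.46, 0.75 and −0.42 in the 3 comparisons, and over all tested genes 0.04, −0.001 and 0.03. The first pair of comparisons share the culture libraries, so their values are set side by side and not counted as support for each other.

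**Figure D1:**
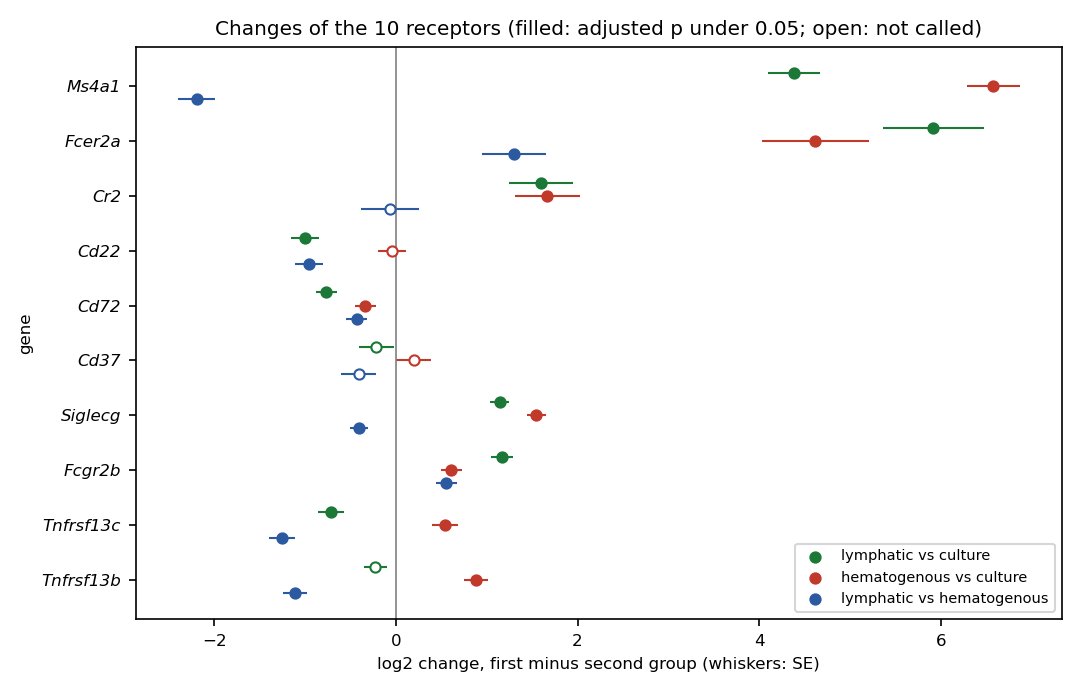
Log2 differences of the 10 receptors (points, with the standard error as whiskers) in the 3 comparisons, one colour per comparison, filled where called and open where not. The vertical line marks no difference. Ms4a1 and Fcer2a lie to the right of the other members in both comparisons with culture, and Cd22 lies left of the line in the lymphatic comparison with culture and on it, at −0.04, in the hematogenous one.

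CD20 is a membrane protein of B cells and the target of therapeutic antibodies, and its gene Ms4a1 showed the widest range of the receptors. Ms4a1 was read at 0.854, 0.520, 0.965 and 0.805 CPM in culture libraries 1 to 4, from 30 reads in all. It was read at 10.2, 18.7, 16.8 and 22.8 CPM in the lymphatic libraries and at 81.1, 68.1, 94.8 and 70.7 CPM in the hematogenous libraries. The 3 groups were separate, with the hematogenous libraries highest and no culture library near either lymph node group. Ms4a1 rose by 4.39 ± 0.29 on the log2 scale (SE; 20.9-fold) in the lymphatic libraries and by 6.58 ± 0.29 (95.7-fold) in the hematogenous libraries, with edgeR adjusted p = 1.9e-07 and 3.15e-09. The lymphatic level was 4.58-fold lower than the hematogenous level (log2 difference −2.19 ± 0.21, edgeR adjusted p = 2.42e-05). Of 16 relatives of CD20 in the MS4A family 7 were tested, and 4 of them fell in the hematogenous libraries, and 3 rose and 1 fell in the lymphatic libraries, by edgeR at an adjusted p under 0.05. Without lymphatic library 4 the count that fell in the lymphatic libraries was 2. Among all tested genes, 13.9% fell in the hematogenous libraries, and 13.4% rose and 13.0% fell in the lymphatic libraries.

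CD23 is the low-affinity receptor for IgE. In culture its gene Fcer2a had 1, 1, 1 and 2 reads in libraries 1 to 4, 5 in all, which an exact Poisson interval of counting error places between 1.62 and 11.7 reads. Fcer2a was read at 4.66, 9.99, 9.60 and 11.4 CPM in the lymphatic libraries and at 2.48, 6.47, 3.22 and 1.89 CPM in the hematogenous libraries. Both lymph node groups were above all culture libraries, and they overlapped each other through hematogenous library 2, which exceeded lymphatic library 1. Against culture, Fcer2a rose by 5.92 ± 0.55 on the log2 scale in the lymphatic and by 4.62 ± 0.59 in the hematogenous libraries (edgeR adjusted p = 4.02e-06 and 4.27e-05). These fitted folds rest on the few culture reads. Fcer2a had the opposite order to Ms4a1 between the lymph node groups: it was 2.47-fold higher in the lymphatic than in the hematogenous libraries (log2 difference 1.30 ± 0.35, edgeR adjusted p = 0.0172). That call was lost when only these groups entered the fit (edgeR adjusted p = 0.0515) and without hematogenous library 1, 3 or 4 (edgeR adjusted p = 0.0676, 0.0523 and 0.0509), and over 22 alternatives the adjusted p ran from 0.000174 to 0.0676.

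**Figure D2:**
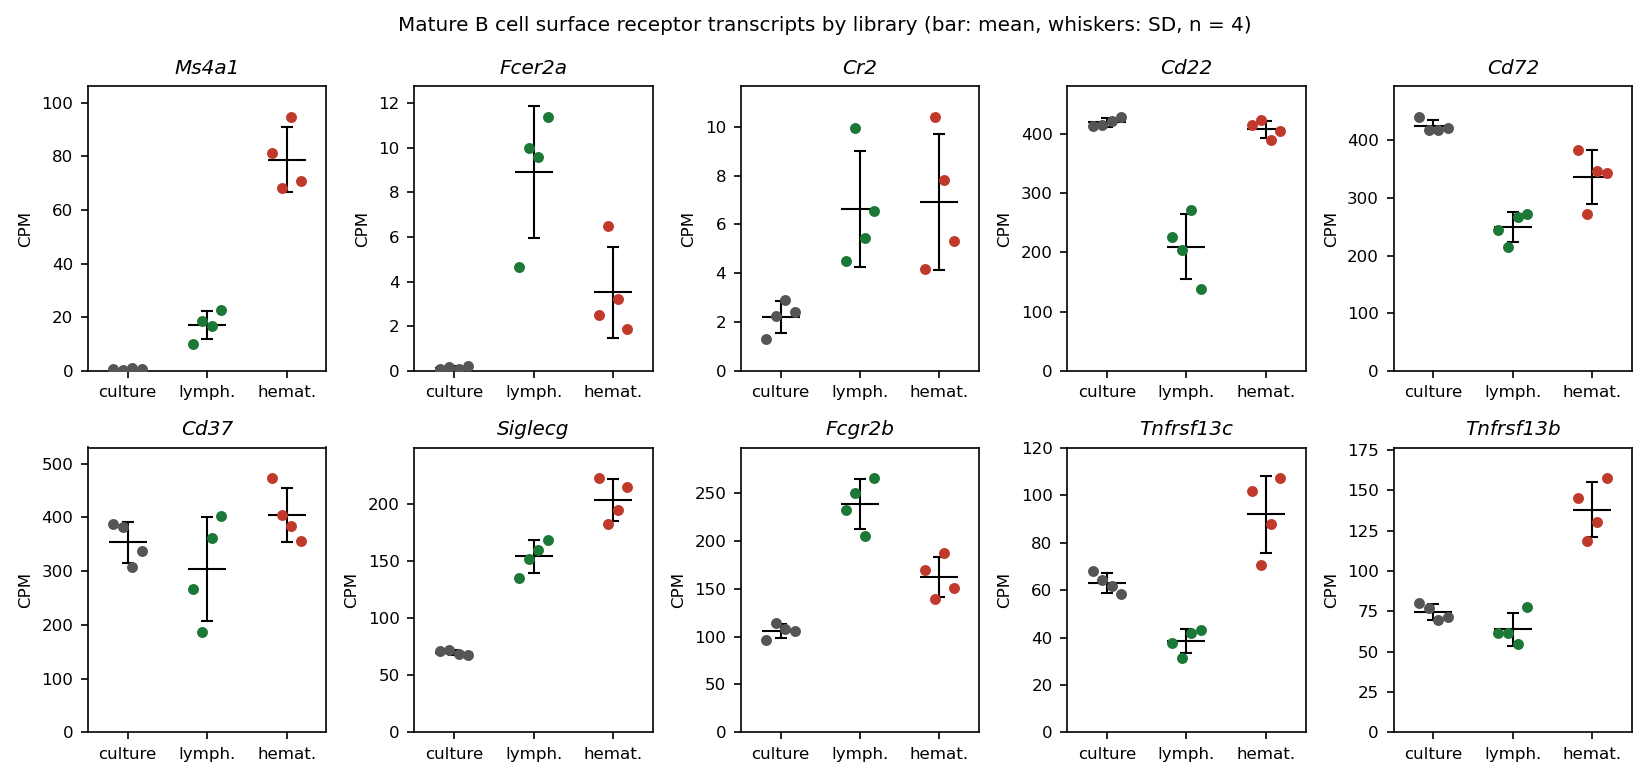
CPM of each of the 10 receptors in the 12 libraries (points, by group), with the group mean as a bar and the SD as whiskers (n = 4). Ms4a1 steps up from culture to lymphatic to hematogenous, Fcer2a is highest in the lymphatic group, and Cd22 is lowest in the lymphatic group.

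The mouse Cr2 gene encodes both complement receptor forms, CD21 and CD35, which bind fragments of complement C3 on antigen. Cr2 was read at 1.32, 2.25, 2.90 and 2.42 CPM in culture, at 4.52, 9.95, 5.43 and 6.56 CPM in the lymphatic and at 4.17, 10.4, 7.81 and 5.31 CPM in the hematogenous libraries. All lymph node libraries were above all culture libraries, and the lymph node groups overlapped almost wholly. Cr2 rose by 1.60 ± 0.35 and 1.67 ± 0.36 on the log2 scale (3.04-fold and 3.18-fold, edgeR adjusted p = 0.00408 and 0.00282). Between the lymph node groups the log2 difference was −0.07 ± 0.32 and was not called (edgeR adjusted p = 0.905).

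Host B cells of a lymph node express every one of these receptors, so reads of other B cell clones were counted beside them. In all 12 libraries the leading heavy-chain V gene was Ighv3-6. Reads of other heavy-chain V genes made up at most 0.0658% of heavy-chain V reads in culture. In lymphatic libraries 1 to 4 they made up 1.18%, 2.11%, 5.17% and 3.603%, and in hematogenous libraries 1 to 4 they made up 0.697%, 1.75%, 0.746% and 0.284%. On the scale of CPM, other V genes summed to 4.39, 8.64, 19.6 and 4.54 in the lymphatic and 3.29, 7.31, 3.71 and 1.33 in the hematogenous libraries, against at most 0.23 in culture. Both lymph node groups were thus above culture, and hematogenous library 2 was the highest of its group. Ighv3-6 itself was lowest in lymphatic library 4, at 121.6 CPM against 326.3 to 493.7 CPM in the other libraries, which raises the share of other V genes there.

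The 4 hematogenous libraries had the same order by Fcer2a as by the share of other heavy-chain V genes, from library 4 over 1 and 3 to library 2. The 4 lymphatic libraries did not: by Fcer2a the order was 1, 3, 2, 4 and by share 1, 2, 4, 3, so the library with the highest share, 5.17%, had 9.60 CPM of Fcer2a. No other receptor had the order of the heavy-chain share in either lymph node group. Kappa-chain V reads outside the leading gene, Igkv3-7, made up 1.98%, 2.24%, 2.20% and 2.43% in hematogenous libraries 1 to 4. Library 4, the lowest by Fcer2a, was thus the highest by the kappa share, so the match held for the heavy chain only. In culture the kappa share was already 1.09% to 1.38%. Per CPM of other heavy-chain V reads, Fcer2a lay between 0.756 and 1.43 CPM in the hematogenous libraries and between 0.490 and 2.51 in the lymphatic libraries, so the ranges overlapped. Cr2 was also highest in hematogenous library 2, at 1.27 to 4.00 CPM per CPM of other V reads in that group and 0.277 to 1.44 in the lymphatic group. Ms4a1 differed from these: it lay at 9.32 to 53.3 CPM per CPM of other V reads in the hematogenous and at 0.859 to 5.02 in the lymphatic libraries, ranges that did not overlap. Ms4a1 was higher in the group with the lower share of other heavy-chain V genes, and within the hematogenous libraries its lowest value was in library 2. These are descriptions over 4 libraries a group, and the part of host B cells in any receptor's level was not tested. In bulk RNA, fewer cells of a type and less RNA per cell cannot be told apart.

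**Figure D3:**
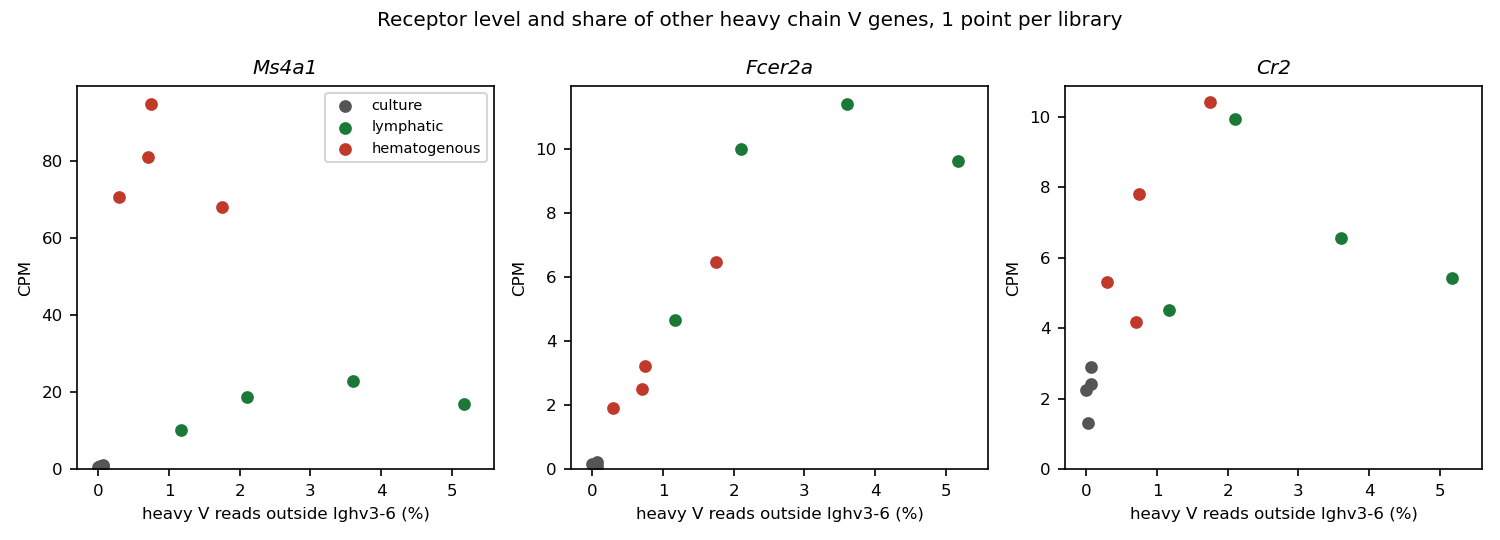
CPM of Ms4a1, Fcer2a and Cr2 (vertical axes) against the share of heavy-chain V reads outside Ighv3-6 in percent (horizontal axis), one point per library, coloured by group. In the hematogenous libraries Fcer2a climbs with the share from 1.89 to 6.47 CPM, whereas Ms4a1 does not follow it. In the lymphatic libraries neither gene follows the order of the share.

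Markers of other cells also moved with the groups. Against culture, 13.4% of all tested genes were called higher and 13.0% lower in the lymphatic libraries. In the hematogenous libraries 13.9% were called higher and 13.9% lower. All 11 T cell markers were called higher in the lymphatic and 9 of 11 in the hematogenous libraries than in culture (edgeR, adjusted p under 0.05), with summed levels of 0 to 1.15 CPM in culture, 22.4 to 102.6 in the lymphatic and 6.63 to 18.7 in the hematogenous libraries. Cd3d, Trbc1, Trbc2, Cd4 and Cd8a had 0 reads in culture. The 12 macrophage and monocyte markers summed to 10.9 to 15.3 CPM in culture, 31.7 to 87.5 in the lymphatic and 18.4 to 26.6 in the hematogenous libraries. Of the 5 tested, 4 were called higher and 1 lower in the lymphatic libraries, and 3 higher and 1 lower in the hematogenous libraries, than in culture. Lyz2 made up the largest part of the rise, at 27.6 ± 14.0 and 11.8 ± 3.19 CPM, whereas Csf1r fell from 8.53 ± 1.72 CPM in culture to 3.75 ± 0.767 and 1.49 ± 0.772 CPM (edgeR adjusted p = 0.0058 and 3.67e-05). Lyz2, C1qa, C1qb, C1qc, Fcgr1 and Marco had 0 reads in culture. Of 13 markers of follicular dendritic and reticular cells, another source of Cr2 RNA, summed levels were 12.8 to 18.4, 7.44 to 17.1 and 17.2 to 21.4 CPM in the culture, lymphatic and hematogenous group. Nearly all of each sum was Mfge8, at 11.7 to 18.1, 6.96 to 16.8 and 17.1 to 21.1 CPM. Cxcl13, made by follicular dendritic cells, was at most 0.0801 CPM in any library, and Pdpn, Ccl19 and Ccl21a had 0 reads in all 3 groups. Their part in the receptor levels was not tested.

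CD22 is a lectin of B cells that binds sialic acid and carries inhibitory tyrosine motifs. Cd22 was read at 412.7, 414.8, 421.2 and 429.5 CPM in culture, at 225.4, 203.9, 272.2 and 138.7 CPM in the lymphatic and at 415.0, 423.5, 390.5 and 404.3 CPM in the hematogenous libraries. The lymphatic libraries were all below both other groups, with library 4 lowest, and the culture and hematogenous libraries overlapped. Cd22 fell by 1.00 ± 0.16 on the log2 scale in the lymphatic libraries (2.00-fold, edgeR adjusted p = 0.000347). In the hematogenous libraries the difference from culture was −0.04 ± 0.16 (edgeR adjusted p = 0.888), and lymphatic libraries were 1.94-fold below hematogenous ones (edgeR adjusted p = 0.000829).

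Siglec-G, the other sialic-acid lectin of the set, went the other way. Siglecg was read at 71.3, 71.6, 68.2 and 67.6 CPM in culture, at 135.0, 151.9, 159.8 and 168.3 CPM in the lymphatic and at 222.3, 182.4, 194.2 and 214.6 CPM in the hematogenous libraries. The groups did not overlap, in the order culture, lymphatic, hematogenous. Siglecg rose by 1.14 ± 0.10 and 1.54 ± 0.10 on the log2 scale against culture (2.21-fold and 2.92-fold, edgeR adjusted p = 2.9e-06 and 1.21e-07). The lymph node groups differed by −0.40 ± 0.10 (edgeR adjusted p = 0.0118), a call lost when genes of low counts were kept (edgeR adjusted p = 0.0734) and when only these groups entered the fit (0.0652), in a range of 0.000443 to 0.0734 over the alternatives.

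CD72 is a C-type lectin with inhibitory motifs and a receptor for semaphorin 4D. Cd72 was read at 441.1, 417.8, 418.5 and 421.0 CPM in culture, at 244.6, 214.9, 266.9 and 272.6 CPM in the lymphatic and at 383.7, 271.9, 347.1 and 343.3 CPM in the hematogenous libraries. Both lymph node groups were below culture, and hematogenous library 2 lay within the lymphatic range. Cd72 fell by 0.77 ± 0.12 on the log2 scale in the lymphatic libraries (edgeR adjusted p = 0.000294) and by 0.34 ± 0.12 in the hematogenous ones (edgeR adjusted p = 0.0459). The hematogenous call was lost under upper-quartile scaling (edgeR adjusted p = 0.076), with genes of low counts kept (0.184), and without any single culture library, lymphatic library 1 or hematogenous library 2, 3 or 4, in a range of 0.00281 to 0.184. Lymphatic against hematogenous, the log2 difference was −0.43 ± 0.12 (edgeR adjusted p = 0.0181), which was lost without hematogenous library 1 (0.0665) and with only these groups in the fit (0.0843), in a range of 0.000894 to 0.0843.

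The IgG receptor of Fcgr2b is the inhibitory Fc receptor of B cells. Fcgr2b was read at 96.7, 114.1, 108.0 and 105.3 CPM in culture, at 231.6, 250.1, 204.7 and 265.3 CPM in the lymphatic and at 169.6, 139.4, 187.4 and 150.9 CPM in the hematogenous libraries. The 3 groups were separate, with the lymphatic libraries highest. Fcgr2b rose by 1.17 ± 0.12 and by 0.61 ± 0.12 on the log2 scale (2.25-fold and 1.53-fold, edgeR adjusted p = 9.27e-06 and 0.00139), and lymphatic levels were 1.47-fold above hematogenous ones (edgeR adjusted p = 0.00446). Macrophages also carry Fcgr2b, and the summed macrophage markers had the same order of groups. Lyz2 made up the largest part of that rise, whereas Csf1r of the same list fell from 8.53 CPM in culture to 3.75 and 1.49 CPM. The part of macrophages in the Fcgr2b level was not tested. Fcgr3, an activating receptor of myeloid cells whose sequence is close to Fcgr2b, went down: it was read at 13.0 to 18.8 CPM in culture, 1.10 to 2.41 in the lymphatic and 0.190 to 0.961 in the hematogenous libraries. Fcgr3 fell by 3.15 ± 0.31 and 4.86 ± 0.38 on the log2 scale (edgeR adjusted p = 7.16e-06 and 4.36e-07). Reads that fit both genes equally could have been lost or split in counting, so both are uncertain to that extent.

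BAFF receptor delivers the survival signal of resting B cells. Tnfrsf13c was read at 68.1, 64.3, 61.6 and 58.2 CPM in culture, at 37.6, 31.5, 41.9 and 43.1 CPM in the lymphatic and at 101.8, 70.7, 88.1 and 107.3 CPM in the hematogenous libraries. The groups were separate, with lymphatic libraries lowest and hematogenous libraries highest. Tnfrsf13c fell by 0.71 ± 0.14 on the log2 scale in the lymphatic libraries (edgeR adjusted p = 0.00223) and rose by 0.54 ± 0.14 in the hematogenous ones (edgeR adjusted p = 0.0103). It was the member called in opposite directions in the lymph node groups, which differed by −1.26 ± 0.14 (2.39-fold lower in lymphatic, edgeR adjusted p = 8.26e-05).

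TACI binds both BAFF and APRIL. Tnfrsf13b was read at 80.3, 77.0, 69.8 and 71.5 CPM in culture, at 61.3, 61.2, 54.5 and 77.8 CPM in the lymphatic and at 144.9, 118.7, 130.1 and 157.5 CPM in the hematogenous libraries. Hematogenous libraries were all above both other groups, and lymphatic library 4 alone lay within the culture range. Tnfrsf13b rose by 0.88 ± 0.13 on the log2 scale in the hematogenous libraries (1.84-fold, edgeR adjusted p = 0.00013). In the lymphatic libraries the difference from culture was −0.23 ± 0.13 (edgeR adjusted p = 0.21), and without lymphatic library 4 it was −0.34 and called (edgeR adjusted p = 0.0139, in a range of 0.0139 to 0.417 over the alternatives). Lymphatic levels were 2.16-fold below hematogenous ones (edgeR adjusted p = 8.85e-05).

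CD37 is a tetraspanin of B cells, a small membrane protein that organizes other receptors. Cd37 was read at 387.3, 382.1, 307.9 and 336.7 CPM in culture, at 266.1, 187.6, 361.7 and 403.4 CPM in the lymphatic and at 473.4, 404.1, 384.2 and 356.9 CPM in the hematogenous libraries. The groups overlapped, and the lymphatic libraries were spread the widest. No comparison was called (edgeR adjusted p = 0.453, 0.516 and 0.145), with log2 differences of −0.21 ± 0.19 for lymphatic against culture, 0.20 ± 0.19 for hematogenous against culture and −0.41 ± 0.19 between the lymph node groups. The last was called without lymphatic library 4, at −0.58 (edgeR adjusted p = 0.0135, in a range of 0.000214 to 0.32 over the alternatives).

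Levels of different genes were compared as CPM per kilobase of transcript. In culture Cd72 and Cd37 led at 254.4 ± 6.64 and 238.1 ± 25.5 CPM per kb (SD, n = 4), with overlapping ranges. Cd22 followed at 114.5, then Fcgr2b at 55.3, Tnfrsf13b at 45.2, Tnfrsf13c at 41.7 and Siglecg at 27.1, of which only Tnfrsf13b and Tnfrsf13c overlapped as neighbours. Cr2, Ms4a1 and Fcer2a were far below, at 0.621, 0.256 and 0.118 CPM per kb, the last pair overlapping. In the lymphatic libraries Cd37 (205.2), Cd72 (149.6) and Fcgr2b (124.1) led, each overlapping the next, and Cd22 at 57.3 overlapped both Siglecg at 59.9 and Tnfrsf13b at 38.5. Ms4a1 at 5.57 CPM per kb stood beside Fcer2a at 7.16 there, whereas in the hematogenous libraries it stood at 25.6 against 2.83. In no group did Ms4a1 reach the level of the 7 receptors that were abundant in culture.

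**Figure D4:**
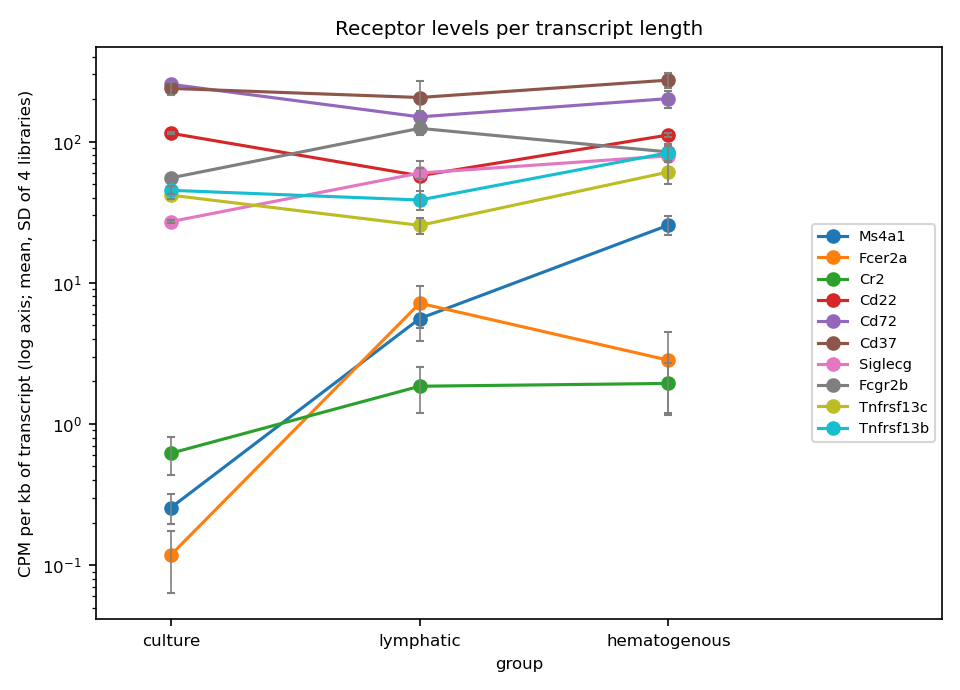
Mean level of each receptor in CPM per kilobase of transcript (log axis) in the 3 groups, with the SD over 4 libraries. Cd37, Cd72 and Cd22 are near the top in culture, and Ms4a1, Fcer2a and Cr2 are separated from the other members by a wide gap in culture that narrows in the lymph node groups.

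Partners of the receptors were taken from lists chosen with earlier results known. Ighd, the heavy chain of the IgD receptor, was read at 299.6 to 339.5 CPM in culture, 145.1 to 186.7 in the lymphatic and 780.2 to 959.4 in the hematogenous libraries, with no overlap. Ighd fell by 0.97 ± 0.11 on the log2 scale in the lymphatic libraries and rose by 1.49 ± 0.11 in the hematogenous ones (edgeR adjusted p = 2.48e-05 and 3.15e-07), the same pair of directions as Tnfrsf13c. Cd79b, a signalling chain of the receptor, rose by 0.84 ± 0.17 and 1.23 ± 0.18 (edgeR adjusted p = 0.00293 and 0.000122). The other signalling chain, Cd79a, was not called in any comparison, at 445.1 ± 39.9, 397.8 ± 104.6 and 475.4 ± 26.2 CPM, but was called lower in the lymphatic libraries than in either other group without lymphatic library 4. Pax5, the factor that maintains B cell identity, was at 548.2 CPM in culture, at 419.3 in the lymphatic and at 776.4 in the hematogenous group. It fell by 0.39 ± 0.12 on the log2 scale in the former and rose by 0.50 ± 0.12 in the latter (edgeR adjusted p = 0.0324 and 0.00696), and the lymphatic call was lost under 8 of 22 alternatives, among them the fits without culture library 2, 3 or 4 or lymphatic library 2.

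The relay of inhibitory receptors, the kinase, phosphatases and adaptors behind CD22, CD72 and the Fc receptor, had 9 tested genes. In the hematogenous libraries 5 rose and 1 fell, with a median log2 difference of 0.42, and without lymphatic library 4 the count that fell was 4. In the lymphatic libraries 1 rose and 2 fell, with a median of −0.36, and without lymphatic library 4 the count that fell was 4. Among all tested genes, 13.9% rose and 13.9% fell in the hematogenous libraries. In the lymphatic libraries 13.4% of all tested genes rose and 13.0% fell, and the counts of 1 and 2 were near these shares. Inpp5d, the lipid phosphatase SHIP1 that acts behind Fcgr2b, was read at 147.1 to 166.2 CPM in culture, 77.98 to 146.2 in the lymphatic and 253.3 to 302.9 in the hematogenous libraries. Inpp5d rose by 0.80 ± 0.16 in the hematogenous libraries (edgeR adjusted p = 0.00134) and was 2.35-fold lower in the lymphatic than in the hematogenous libraries (edgeR adjusted p = 0.000154). Dok3, an adaptor of inhibitory signals, fell by 0.87 ± 0.22 and 0.70 ± 0.22 (edgeR adjusted p = 0.0095 and 0.0281), and the hematogenous call was lost under 7 of 22 alternatives, without culture library 1, 2 or 4 or any hematogenous library. Lyn, the kinase that phosphorylates the inhibitory motifs, rose by 0.37 ± 0.09 in the lymphatic libraries (edgeR adjusted p = 0.00834), a call lost when genes of low counts were kept. It rose more in the hematogenous libraries, by 0.70 ± 0.09 (edgeR adjusted p = 5.85e-05), and the lymph node groups differed by −0.33 ± 0.09 (edgeR adjusted p = 0.0214).

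Ligands and the enzymes that make sialic-acid ligands of CD22 and Siglec-G held 7 tested genes, of which 4 were lower in lymphatic than in hematogenous libraries (edgeR, adjusted p under 0.05). Among all tested genes, 10.9% were lower in that comparison. St6gal1, which makes the α-2,6-linked sialic acid that CD22 binds, was read at 180.6 to 186.5 CPM in culture, 52.1 to 65.6 in the lymphatic and 133.9 to 171.5 in the hematogenous libraries. The lymphatic libraries were separate and low, as for Cd22. St6gal1 fell by 1.67 ± 0.11 on the log2 scale (3.17-fold, edgeR adjusted p = 2.33e-07) in the lymphatic libraries. St3gal1, which adds sialic acid in another linkage, rose by 2.46 ± 0.28 in the hematogenous libraries (5.49-fold, edgeR adjusted p = 1.55e-05). Cmah, which makes the glycolyl form of sialic acid that mouse CD22 prefers, rose by 0.72 ± 0.20 there (edgeR adjusted p = 0.0133) and was 2.31-fold lower in lymphatic than in hematogenous libraries (edgeR adjusted p = 0.000883). Sema4d, a ligand of CD72, fell by 0.63 ± 0.13 in the lymphatic libraries (edgeR adjusted p = 0.00352).

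Of 14 genes of the BAFF and APRIL system, 11 were tested, and the cytokines Tnfsf13b and Tnfsf13 and the receptor Tnfrsf17 were not. In the hematogenous libraries 4 rose and 1 fell, where 13.9% of all tested genes rose and 13.9% fell. In the lymphatic libraries 1 rose and 1 fell, near the 13.4% and 13.0% of all tested genes. Without lymphatic library 4 the count that rose in the lymphatic libraries was 4. Nfkb2, whose product is processed in the alternative NF-κB route that BAFF receptor engages, fell by 0.92 ± 0.22 and 1.38 ± 0.23 on the log2 scale (edgeR adjusted p = 0.00798 and 0.000461). Traf3, which holds that route in check, rose by 0.81 ± 0.18 in the hematogenous libraries (edgeR adjusted p = 0.0034). Birc3 rose by 1.03 ± 0.17 there (edgeR adjusted p = 0.000387).

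Of 23 tested other B cell surface genes, 15 rose and 4 fell in the lymphatic libraries and 17 rose and 2 fell in the hematogenous libraries, with median log2 differences of 0.96 and 1.23. Between the lymph node groups 3 were higher and 11 lower in the lymphatic libraries. Among all tested genes, 13.4% rose and 13.0% fell in the lymphatic and 13.9% rose and 13.9% fell in the hematogenous libraries. Between the lymph node groups, 11.4% of all tested genes were higher and 10.9% lower in the lymphatic libraries. Cd74, the invariant chain of class II antigen presentation, was read at 67.6 to 78.5 CPM in culture, 233.4 to 649.6 in the lymphatic and 1495 to 1904 in the hematogenous libraries, with no overlap and the group order of Ms4a1. Fcmr, the Fc receptor for IgM, was read at 485.2 to 532.0 CPM in culture, 107.3 to 121.3 in the lymphatic and 175.5 to 218.3 in the hematogenous libraries. Fcmr fell by 2.20 ± 0.10 on the log2 scale in the lymphatic libraries (edgeR adjusted p = 9.23e-09). Cd180, a Toll-like receptor homologue of B cells, fell by 1.40 ± 0.14 there (edgeR adjusted p = 9.34e-06).

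**Figure D5:**
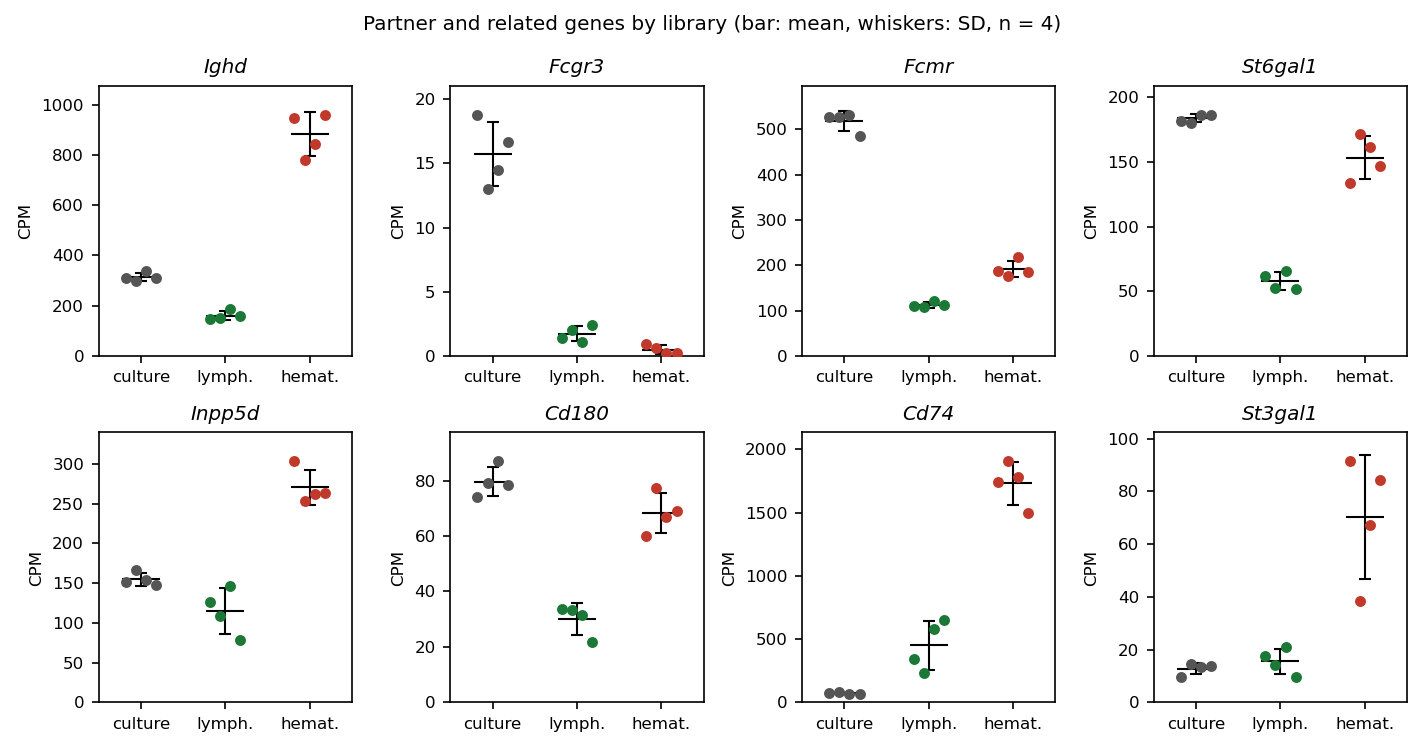
CPM of 8 partner and related genes in the 12 libraries (points, by group), with the mean as a bar and the SD as whiskers (n = 4). Ighd, Inpp5d and St6gal1 are low in the lymphatic and higher in the hematogenous group, Cd74 steps up across the groups, and Fcgr3 and Fcmr are highest in culture.

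Of 20 tested transcription factors of B cells, 11 were lower in lymphatic than in hematogenous libraries (edgeR, adjusted p under 0.05), where 10.9% of all tested genes were lower. Against culture, 4 rose and 7 fell in the lymphatic libraries, where 13.4% of all tested genes rose and 13.0% fell. Without lymphatic library 4, 6 rose and 9 fell there, and 14 were lower than in the hematogenous libraries. In the hematogenous libraries 10 rose and 2 fell, where 13.9% of all tested genes rose and 13.9% fell. The 10 ranged from 7 to 16 over the alternatives, with 14 without lymphatic library 4 and over 1.5 times the count without lymphatic libraries 3 and 4 and with only the groups compared in the fit. Klf2, a factor of resting lymphocytes, rose by 2.97 ± 0.37 and 3.61 ± 0.38 on the log2 scale (edgeR adjusted p = 5.51e-05 and 6.9e-06). Bcl6, the factor of germinal centre B cells, fell by 1.87 ± 0.23 and 2.06 ± 0.24 (edgeR adjusted p = 5.25e-05 and 1.84e-05). Bach2, which restrains plasma cell fate, fell by 1.19 ± 0.21 in the lymphatic libraries (edgeR adjusted p = 0.000787).

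For each receptor the genes with the nearest pattern were sought among 9782 genes, by the root mean square difference of centred log2 CPM over the 12 libraries. Nearest to Ms4a1 were H2-Eb1 (0.365), Gm15987 (0.433) and H2-Aa (0.478), where Ms4a1 itself varied by 2.67 about its mean. H2-Eb1 and H2-Aa encode chains of class II molecules. Nearest to Fcer2a were Lgals3bp (0.430), Gbp7 (0.574) and Gm12678 (0.687), where Fcer2a itself varied by 2.09. Nearest to Cr2 were Lrtm2 (0.410), Bank1 (0.415) and Klhl14 (0.432), where Cr2 itself varied by only 0.836. Cd22 was followed by Arhgap17 (0.094), Map3k1 (0.115) and Phf2 (0.124), Siglecg by Parvg (0.168), Cd2 (0.175) and Nipsnap1 (0.175), and Tnfrsf13c by Ucp2 (0.159), Btg1 (0.160) and Calcoco1 (0.164). Cd22, Siglecg and Tnfrsf13c themselves varied by 0.523, 0.659 and 0.539. These distances describe the 12 libraries, which share their group structure.

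Promoters are shown for Cd22, Cd72 and Tnfrsf13c because these were the 3 members that fell in the lymphatic libraries. RefSeq windows on GRCm38.p6, another build than the GRCm39 of the count files, matched 9 of the 10 members, Ms4a1 being the exception. The 250 bases before each start are given 5′ to 3′ on the gene's strand, with motif matches in capitals. Cd22 lies at chr7:30879029-30879278 on the minus strand, Cd72 at chr4:43454627-43454876 on the minus strand and Tnfrsf13c at chr15:82224381-82224630 on the minus strand.
Cd22: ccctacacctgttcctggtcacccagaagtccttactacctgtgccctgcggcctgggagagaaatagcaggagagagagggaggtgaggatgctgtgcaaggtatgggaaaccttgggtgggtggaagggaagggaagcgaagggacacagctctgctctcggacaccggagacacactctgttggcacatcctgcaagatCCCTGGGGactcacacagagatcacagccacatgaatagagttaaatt
Cd72: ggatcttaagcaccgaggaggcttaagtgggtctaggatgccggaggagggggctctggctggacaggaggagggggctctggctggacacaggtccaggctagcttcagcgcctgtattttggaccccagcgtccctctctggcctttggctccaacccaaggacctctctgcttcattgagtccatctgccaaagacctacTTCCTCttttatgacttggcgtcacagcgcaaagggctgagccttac
Tnfrsf13c: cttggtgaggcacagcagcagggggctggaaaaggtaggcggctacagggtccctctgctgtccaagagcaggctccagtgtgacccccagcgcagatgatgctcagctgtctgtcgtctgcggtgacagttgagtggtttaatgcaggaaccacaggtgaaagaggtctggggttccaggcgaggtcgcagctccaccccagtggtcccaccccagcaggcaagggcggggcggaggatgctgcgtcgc

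Motifs were searched on both strands in windows of 300 bases, 250 before and 50 after the start. They were the octamer ATGCAAAT (in 1.74% of all 32851 windows), the NF-κB motif GGANTTTCC (1.25%), the EBF motif CCCNNGGG (13.7%), the E-box CACGTG that MYC binds (7.15%) and the PU.1 motif GAGGAA (28.3%). The capitals mark an EBF match in the Cd22 window, 48 bases before the start, and a PU.1 match read on the other strand in the Cd72 window, 47 bases before the start. The Tnfrsf13c window held none of these letters. Among the other members, Cd37 held an E-box and PU.1 matches, Siglecg held PU.1 matches in a first window, and Fcer2a, Cr2, Fcgr2b and Tnfrsf13b held none. The 3 members that fell together thus shared no searched motif, and a match or its absence is a description of letters only.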

How the data were processed

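Poly(A) RNA was sequenced in 12 libraries of 3 groups, which were read from the titles. Reads were single-end from a stranded preparation, per the labels' protocols. FastQC 0.11.9, Trimmomatic 0.39, HISAT2 2.1.0, HTSeq 2.0.2 and build GRCm39 are named, per the submitters' processing notes. The strand setting of the counting is not given in the sources used here. Each library has 1 deposited file of unnormalized counts by Ensembl gene. Reads assigned to no gene, in 5 summary lines and 30.3% to 36.46% of the total, were left out.

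Symbols (91.76% of identifiers; 68 symbols shared by 2 identifiers) and transcript lengths came from the older GENCODE M21. There, 6 of the 10 members overlap a gene on the other strand (Ms4a1, Cd22, Cd72, Cd37, Fcgr2b and Tnfrsf13b). CPM were computed with TMM factors. Genes kept by filterByExpr were tested by group over all libraries together, leaving 9 residual degrees of freedom, with edgeR 4.0.16 in R 4.3.3, adjusted by Benjamini-Hochberg at 0.05. Each SE is approximate, being the log2 difference over the root of F. DESeq2 1.42.0 and limma 3.58.1 were alternatives. The fitting was tested on simulated data. Other alternatives were other scalings and filters, a replicate block and leaving out libraries. Molecular identifiers were not used here, so the 95% exact intervals cover counting error only. Totals of 5286775 to 25302016 counts set the precision.

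The members and lists were chosen with earlier results of these data known. From each list, at most 3 called genes per comparison with a mean of 10 CPM or more in the higher group could be named, by size of change, and Cd79a, Cd79b and Pax5 always. An item that the rule names is not reported here. Marker genes with their levels, Fcgr3 beside Fcgr2b, and the V genes are named beside the results they touch. Lyn and Icosl are also given in comparisons where the rule did not name them.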

Additional observations from a re-analysis of the deposited data

Results flagged for a closer look

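In culture, library 1 held the highest Cd72 level, 441.1 CPM, with a gap to the next library of 0.863 of the group's range. Chance alone gives such a gap in about 1 in 20 groups. All 10 receptors were screened in each of the 3 groups, so a gap of this size somewhere is not unusual.

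The changes against culture differed between the lymphatic and hematogenous libraries for 8 of the 10 receptors, by edgeR's test of lymphatic against hematogenous libraries at an adjusted p under 0.05. Of all tested genes, 11.4% were called higher and 10.9% lower in the lymphatic libraries by that test. The log2 difference was −2.19 for Ms4a1, −0.96 for Cd22, −0.43 for Cd72, −0.40 for Siglecg, −1.26 for Tnfrsf13c and −1.11 for Tnfrsf13b. It was 1.30 for Fcer2a and 0.56 for Fcgr2b, the receptors that were higher in the lymphatic libraries.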

How the results depend on the processing

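Among the members' log2 differences under alternatives, 633 kept their direction and side of the threshold, 18 lost a call, 5 gained one and 4 changed sign. All 4 sign changes were of Cr2 between the lymph node groups, which was never called: the log2 difference of −0.07 became 0.08 without lymphatic replicate 1, 0.02 without lymphatic replicate 3, 0.20 without hematogenous replicate 2 and 0.06 without lymphatic replicates 3 and 4, a choice made after seeing the data. Leaving out single libraries gave −0.34 to 0.20. Without those replicates 3 and 4, 5 members instead of 3 were lower in the lymphatic libraries than in culture (Cd37 at −0.65, edgeR adjusted p = 0.00144, and Tnfrsf13b at −0.29, 0.0399). The 1 member lower in the hematogenous libraries than in culture, Cd72, was lost (0 members) under upper-quartile scaling and without a filter on low counts. Leaving out single libraries gave 0 to 1, with 0 without any culture replicate, lymphatic replicate 1 or hematogenous replicate 2, 3 or 4. The 2 members higher in lymphatic than in hematogenous libraries became 1 when only these groups entered the fit, and 1 to 2 when single libraries were left out. Cd22 in culture was 428.1 CPM without TMM factors, against 419.6. With the longest transcript as length, the mean over libraries was 130.5 CPM per kb for Cd72, 139.4 for Cd37 and 47.6 for Fcgr2b. With the mean transcript length, their group means ran from 149.6 to 254.4, from 205.2 to 272.5 and from 55.3 to 124.1 CPM per kb. These levels thus depend on the length chosen. For named partner genes, 12 results changed their call under some alternative. Among the lists, higher calls in lymphatic against hematogenous libraries ranged from 0 to 3 for the other surface genes, higher calls in hematogenous libraries against culture from 7 to 16 for the transcription factors, lower calls in either comparison with culture from 1 to 4 and 0 to 4 for the inhibitory relay, and higher calls in lymphatic libraries against culture from 1 to 6 for the BAFF and APRIL system. With few culture reads, depth limits the size of the Fcer2a folds. The cause of these changes was not tested.

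The labels do not say whether equal replicate numbers mark a shared animal or batch. Over 12 pairs of equal number, the correlation of deviations ran from −0.181 to 0.0919 and 0 exceeded 0.1. Such values show no likeness by number but cannot exclude a shared batch. With a replicate block, the members called remained 5 higher and 3 lower, 7 and 1, and 2 and 6 in the 3 comparisons. Over all genes the block gave 1428 higher and 1533 lower genes in lymphatic against culture (1816 and 1754 without it).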

Other observations

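Relatives of the receptors showed patterns of their own. Of 8 tested tetraspanins related to Cd37, 2 rose and 4 fell in the hematogenous libraries against culture (edgeR, adjusted p under 0.05). Among all tested genes, 13.9% rose and 13.9% fell there. Tspan32 rose by 0.92 ± 0.24 on the log2 scale in the lymphatic libraries and by 2.48 ± 0.25 in the hematogenous libraries (edgeR adjusted p = 0.0121 and 4.3e-06). Tspan31 fell by 0.91 ± 0.12 and 1.51 ± 0.12 (edgeR adjusted p = 6.86e-05 and 5.15e-07). Among the MS4A relatives of CD20, Ms4a4b was 3.50-fold higher in lymphatic than in hematogenous libraries (edgeR adjusted p = 0.000347), the opposite order to Ms4a1. The T cell markers had that same order of groups, and their part in the level of Ms4a4b was not tested. Ly6d, a surface protein of the B lineage, was at 0.21 ± 0.19 CPM in culture, 6.70 ± 5.80 in the lymphatic and 17.9 ± 4.50 in the hematogenous libraries (SD, n = 4). Lymphatic library 4 held 15.3 CPM of Ly6d, against 2.71 to 5.27 CPM in the other lymphatic libraries. Icosl, which encodes the ligand of the T cell costimulator ICOS, rose by 3.93 ± 0.32 on the log2 scale in the hematogenous libraries (15.2-fold, edgeR adjusted p = 6.3e-07). It rose by 2.84 ± 0.32 in the lymphatic libraries (7.18-fold, edgeR adjusted p = 2.08e-05). Both folds rest on a low culture level, 0.81 ± 0.47 CPM.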
